A study of Mus musculus with 9 samples.

Results

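The SLC25 family was represented by 46 rows of the gene table, out of 27999 rows in all. They were found by symbol, as every row named Slc25a and a number, with Slc25a37 left out because it belongs to iron handling. Of the 46 rows, 36 passed the filter on low counts and were tested, and 10 did not. RNA was sequenced from G1E, an erythroid progenitor line from mouse without functional Gata1, which is therefore missing in every group. The medium held stem cell factor and erythropoietin, and the cells were infected with virus carrying the empty HMD vector, human wildtype GATA1 or a human GATA1 mutant, with 3 libraries in each group. Which mutation was used, how long after infection RNA was taken and whether infected cells were selected is not in the labels, and all groups come from 1 cell line.

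SLC25 proteins are nuclear-encoded carriers, most of which sit in the inner mitochondrial membrane and exchange metabolites, nucleotides, cofactors and amino acids between the matrix and the cytosol. In red cell precursors they feed heme synthesis, which starts and ends inside the mitochondrion. GATA1, a zinc finger transcription factor, controls the maturation of these cells, and the comparisons ask which carriers moved with each form of GATA1.

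Library totals ranged from 11364358 to 17289307 counts, and a count of 0 allowed up to 0.174 to 0.264 CPM (3 counts, as a rate of the library total). Levels below are CPM scaled by TMM factors. Human GATA1 RNA stood at 653, 706 and 598 CPM of library totals in mutant replicates 1, 2 and 3. It stood at 816, 715 and 921 CPM in wildtype replicates 1, 2 and 3, and at 0 to 2 counts with the empty vector. All mutant libraries were below all wildtype libraries, by a narrow gap. The part of this difference in the carrier results was not tested. Mutant replicates 1 and 2 resembled each other more closely than any other pair of one group, at a chi-square per degree of freedom of 2.18 against 14.3 to 52.8. They were kept as separate libraries because this still exceeded sampling noise, and their sum is among the alternatives below. Whether they come from separate cultures cannot be told from this value. If they do not, the spread of the mutant group is understated. The summed erythroid markers rose from between 1589.9 and 2046 CPM with the empty vector to between 20916 and 31332 CPM with wildtype GATA1, where all 10 were called higher. With the mutant the sum was 2881 to 3002 CPM, with 6 of the 10 called higher. The summed markers of other lineages were lower in the wildtype libraries. The mast cell sum went from 112 to 149 CPM down to 28.7 to 35.0 CPM (3 of 4 tested markers lower, Mcpt8 at 0 in both groups and Fcer1a at 0 with wildtype GATA1). The megakaryocyte sum went from 91.9 to 95.1 CPM down to 39.3 to 48.6 CPM (4 of 5 lower, Gp1bb at 0 in both), and the granulocyte and monocyte sum from 8.94 to 11.002 CPM down to 1.67 to 2.32 CPM (3 of 4 lower, Elane at 0 in both). The lymphoid sum went from 11.5 to 12.3 CPM to 7.55 to 10.1 CPM, with 1 tested marker higher and 1 lower and Cd3e at 0 in both groups. With the mutant, 2 mast cell markers were called lower (sum 76.5 to 84.1 CPM), and 0 of the megakaryocyte, granulocyte and monocyte, and lymphoid markers were called in edgeR. The mutant's megakaryocyte sum of 63.6 to 75.5 CPM and lymphoid sum of 8.02 to 9.35 CPM were nevertheless below all empty vector libraries. Its granulocyte and monocyte sum of 8.05 to 9.72 CPM overlapped that of the empty vector. The part of these shifts in the carrier results was not tested, and in bulk RNA a change in the number of cells of a type cannot be told apart from a change in RNA per cell.

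Wildtype GATA1 raised 4 carriers and lowered 7. The 4 that rose were Slc25a38, Slc25a21, Slc25a39 and Slc25a51, by 1.74-fold to 3.204-fold, and the 7 that fell were Slc25a23, Slc25a45, Slc25a15, Slc25a13, Slc25a4, Slc25a12 and Slc25a1. In edgeR's quasi-likelihood test, with adjustment over all 9979 genes tested, the 4 higher members were 11.1% of the 36 tested, against 11.4% of all tested genes. The 7 lower members were 19.4%, against 11.9% of all tested genes. The median log2 fold change of the 36 members was −0.18, beside −0.04 for all tested genes. Wildtype and empty vector libraries did not overlap for 15 of the 36 members (41.7%), against 32.6% of all tested genes.

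**Figure D1:**
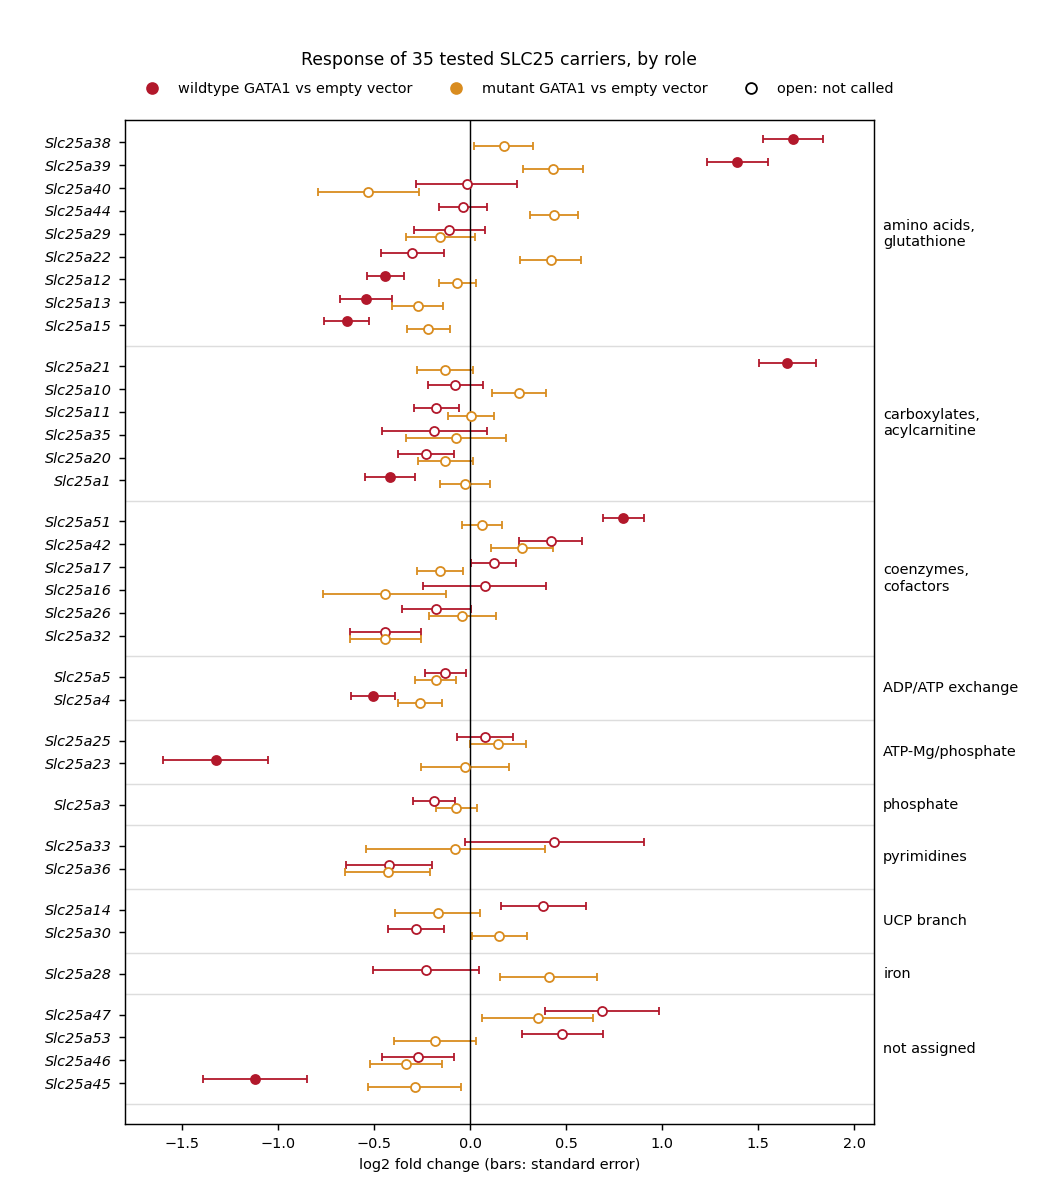
Log2 fold changes of 35 of the 36 tested SLC25 carriers, grouped by role, for wildtype GATA1 (red) and mutant GATA1 (orange) against the empty vector, with bars of 1 standard error and filled dots for an adjusted p under 0.05. Filled dots are the 4 rises and 7 falls with wildtype GATA1, and all mutant dots are open.

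Slc25a38 carries glycine into the mitochondrion, where glycine is a substrate of the first step of heme synthesis, and its human counterpart is a gene of congenital sideroblastic anemia. It lies on GRCm38 chromosome 9 at 120110374 to 120124504 on the plus strand. Its level was 71.0, 57.6 and 64.3 CPM with the empty vector, 77.8, 73.2 and 66.5 CPM in the mutant libraries and 221, 239.7 and 158 CPM in the wildtype libraries (replicates 1, 2 and 3). All wildtype libraries stood above all others, and replicate 3 was the lowest of them. The log2 fold change against the empty vector was 1.68 ± 0.16 (SE), with an adjusted p of 6.91e-06 in edgeR, and it was 1.84 without wildtype replicate 3. The mutant's log2 fold change of 0.17 was not called, and its 95% interval ran from −0.16 to 0.51.

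Slc25a39, a carrier needed for the import of glutathione into mitochondria, had the highest level per exon length of the 4 carriers that rose. It lies on chromosome 11 at 102402985 to 102407946 on the minus strand. With the empty vector it stood at 197, 236 and 271 CPM, with the mutant at 340.1, 327 and 283 CPM and with the wildtype at 722, 629 and 494 CPM. The 3 groups did not overlap, with the mutant libraries just above those with the empty vector. The wildtype log2 fold change was 1.39 ± 0.16, with an adjusted p of 3.89e-05 in edgeR, and it was 1.53 without wildtype replicate 3. The mutant's 0.43 was not called (adjusted p 0.342), although its unadjusted interval ran from 0.09 to 0.77. Slc25a40, the close relative of Slc25a39, had a wildtype log2 fold change of −0.02 with an interval from −0.59 to 0.55 and was not called.

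Slc25a21 carries oxodicarboxylates such as oxoadipate, which arises in lysine and tryptophan breakdown. It spans chromosome 12 from 56712634 to 57197472 on the minus strand. Its level was 49.4, 41.5 and 33.8 CPM with the empty vector, 37.2, 34.95 and 41.7 CPM in the mutant libraries and 129, 122 and 141 CPM in the wildtype libraries. The mutant libraries lay within the range of the empty vector libraries, and the wildtype libraries stood above both groups. The wildtype log2 fold change was 1.65 ± 0.15 (adjusted p 4.96e-06 in edgeR). Exons of Pax9 on the other strand cover 3.88% of its exon length, and reads of such shared bases cannot be assigned because the libraries keep no strand.

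Slc25a51, which imports NAD+, rose the least of the 4 but with little spread. It lies on chromosome 4 at 45395923 to 45408766 on the minus strand. The 3 empty vector libraries held 61.8, 62.5 and 65.0 CPM, the mutant libraries 65.0, 63.3 and 69.0 CPM and the wildtype libraries 115, 107 and 107 CPM. The wildtype log2 fold change was 0.80 ± 0.10 (adjusted p 0.000123 in edgeR). The other 6 tested carriers of coenzymes and cofactors were not called, among them the coenzyme A carrier Slc25a42 (0.42, interval 0.06 to 0.77, adjusted p 0.084 in edgeR) and the folate carrier Slc25a32 (−0.44, interval −0.84 to −0.05, adjusted p 0.101).

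**Figure D2:**
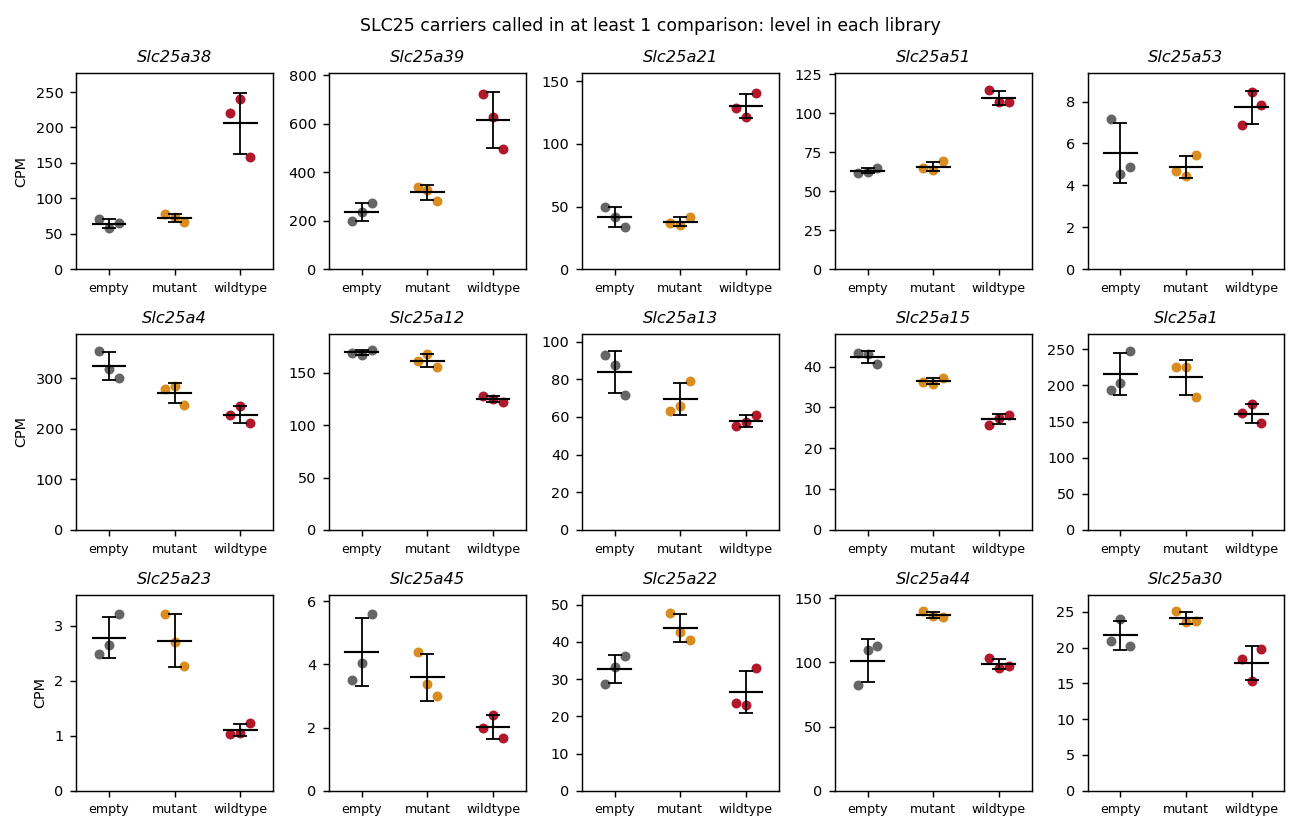
Level in CPM (vertical axes, linear from 0) of the 15 carriers called in at least 1 comparison, with 1 dot per library and bars for the mean and SD of 3 libraries. The wildtype libraries stand apart upwards for Slc25a38, Slc25a39, Slc25a21 and Slc25a51, and downwards for Slc25a12, Slc25a15, Slc25a23 and Slc25a45. By narrower gaps they also lie below all others for Slc25a1, Slc25a4 and Slc25a13.

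Promoter sequence was read for the 3 raised carriers that have an entry in the RefSeq table (GRCm38.p6), and for Slc25a4 and Slc25a12, the only 2 of the 7 falling members with a GATA match, chosen for that match. Each is the 250 bases before a RefSeq transcription start, 5′ to 3′ on the gene's strand, and capitals mark motif matches. The windows are chr9:120110132-120110381 (plus strand) for Slc25a38, chr11:102407518-102407767 (minus) for Slc25a39, chr12:57197473-57197722 (minus, the farther upstream of its 2 starts) for Slc25a21, chr8:46211063-46211312 (minus) for Slc25a4 and chr2:71367756-71368005 (minus) for Slc25a12.
Slc25a38: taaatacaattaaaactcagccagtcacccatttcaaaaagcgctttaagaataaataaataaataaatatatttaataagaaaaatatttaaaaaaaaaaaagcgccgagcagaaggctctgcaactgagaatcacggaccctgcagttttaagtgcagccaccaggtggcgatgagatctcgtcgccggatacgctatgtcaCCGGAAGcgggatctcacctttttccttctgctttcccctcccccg
Slc25a39: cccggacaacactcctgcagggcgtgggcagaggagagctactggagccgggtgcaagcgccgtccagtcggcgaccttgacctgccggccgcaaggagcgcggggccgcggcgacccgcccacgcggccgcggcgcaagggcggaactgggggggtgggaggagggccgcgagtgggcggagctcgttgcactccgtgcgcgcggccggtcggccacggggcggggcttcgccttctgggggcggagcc
Slc25a21: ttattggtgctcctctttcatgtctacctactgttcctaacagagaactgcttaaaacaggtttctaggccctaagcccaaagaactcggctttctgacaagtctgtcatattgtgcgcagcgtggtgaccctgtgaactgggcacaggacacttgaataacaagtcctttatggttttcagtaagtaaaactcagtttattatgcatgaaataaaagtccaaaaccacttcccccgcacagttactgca
Slc25a4: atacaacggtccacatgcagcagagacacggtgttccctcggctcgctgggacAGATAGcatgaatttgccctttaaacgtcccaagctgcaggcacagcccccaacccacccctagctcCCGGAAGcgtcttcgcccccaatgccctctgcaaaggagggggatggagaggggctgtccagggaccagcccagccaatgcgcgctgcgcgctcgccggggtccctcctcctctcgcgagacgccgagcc
Slc25a12: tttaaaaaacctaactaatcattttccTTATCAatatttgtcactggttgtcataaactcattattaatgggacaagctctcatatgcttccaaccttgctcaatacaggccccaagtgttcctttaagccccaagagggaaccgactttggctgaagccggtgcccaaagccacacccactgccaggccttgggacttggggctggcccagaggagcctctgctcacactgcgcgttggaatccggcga
The motifs searched on both strands were the GATA core, which is AGATAA or else AGATAG and, with another first base, TGATAA or else TGATAG, as well as the ETS site CCGGAAG and the palindromic NRF1 site. No GATA match lay in the windows of the 3 raised carriers, and none in the second window of Slc25a21. The windows of the other 5 falling members (Slc25a1, Slc25a13, Slc25a15, Slc25a23 and Slc25a45) held none either. Slc25a4 held AGATAG at 197 bases and Slc25a12 held TGATAA, read as TTATCA on the printed strand, at 223 bases before the start. Slc25a38 held an ETS match at 46 bases and Slc25a4 at 130 bases before the start. The 36 family members in the RefSeq table are not the 36 tested carriers. They include untested ones such as Slc25a43 and lack tested ones such as Slc25a51. Among their 46 windows, 13% held a GATA match, against 26.5% of all 32851 windows of this length. The shares were 13% against 6.91% for the ETS site and 4.35% against 3.74% for the NRF1 site. These are matches of letters only. RefSeq and GENCODE starts differ for some of the printed windows. The Slc25a39 window lies wholly inside its GENCODE gene. Most of the Slc25a4 window, with its AGATAG, lies inside GENCODE Slc25a4, which ends at 46211284, and the last bases of the Slc25a38 window lie inside Slc25a38.

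Of the 9 tested carriers of amino acids and glutathione, 3 fell with wildtype GATA1 and 2 rose, the latter being Slc25a38 and Slc25a39. Slc25a12 (aralar) and Slc25a13 (citrin) exchange aspartate for glutamate in the malate-aspartate shuttle, and Slc25a15 exchanges ornithine for citrulline. Slc25a12 stood at 169, 167 and 172 CPM with the empty vector, 162, 168 and 156 CPM in the mutant libraries and 128, 125 and 122 CPM in the wildtype libraries. The wildtype libraries lay below all others, with a log2 fold change of −0.44 ± 0.10 (adjusted p 0.00526 in edgeR). Slc25a15 stood at 43.3, 43.2 and 40.6 CPM with the empty vector, 36.3, 35.8 and 37.1 CPM in the mutant libraries and 25.8, 27.4 and 28.1 CPM in the wildtype libraries. Its 3 groups did not overlap, with the mutant between the others. The wildtype log2 fold change of Slc25a15 was −0.65 ± 0.12 (adjusted p 0.00139), and the mutant's −0.22 was not called (interval −0.47 to 0.03). Slc25a13 held 93.1, 87.4 and 71.5 CPM with the empty vector, 63.2, 66.0 and 79.1 CPM in the mutant libraries and 54.9, 57.1 and 61.1 CPM in the wildtype libraries. The empty vector and mutant ranges overlapped, and the wildtype libraries lay below both. Its wildtype log2 fold change was −0.54 ± 0.14 (adjusted p 0.0115), a call that was lost without wildtype replicate 1 or without empty vector replicate 2 (adjusted p up to 0.104 over all alternatives).

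Slc25a4 and Slc25a5 are the ADP/ATP carriers, which export the ATP made in the matrix, Slc25a4 being the heart and muscle form and Slc25a5 the form of proliferating cells. Slc25a4 fell, from 355, 318 and 301 CPM with the empty vector to 228, 245 and 211 CPM in the wildtype libraries, and held 278, 285 and 248 CPM in the mutant libraries. The wildtype log2 fold change was −0.51 ± 0.11 (adjusted p 0.00608 in edgeR). The mutant libraries lay below all empty vector libraries, but the difference of −0.26 was not called (adjusted p 0.373). Slc25a5 held 1754, 1583 and 1495 CPM with the empty vector, 1387, 1406 and 1470.2 CPM in the mutant libraries and 1448.5, 1521.5 and 1444.9 CPM in the wildtype libraries, and was not called against the empty vector (wildtype −0.13, interval −0.36 to 0.10). GENCODE annotates a pseudogene, Slc25a5-ps, and how reads shared with such copies were counted is not given in the sources used here. Within libraries, the ratio of Slc25a4 to Slc25a5 per exon length was 0.141 ± 0.000541 with the empty vector, 0.133 ± 0.0135 with the mutant and 0.108 ± 0.00543 with the wildtype (SD, n = 3). The wildtype ratios were below all others, with a two-sided exact permutation p of 0.1 against either group, the smallest that 3 against 3 libraries allow (0.3 after Benjamini-Hochberg adjustment over 6 such tests). The ratio of Slc25a12 to Slc25a13 was 1.06 ± 0.165, 1.22 ± 0.176 and 1.12 ± 0.0840 in the same order, and its groups overlapped (exact permutation p from 0.2 to 0.6).

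**Figure D3:**
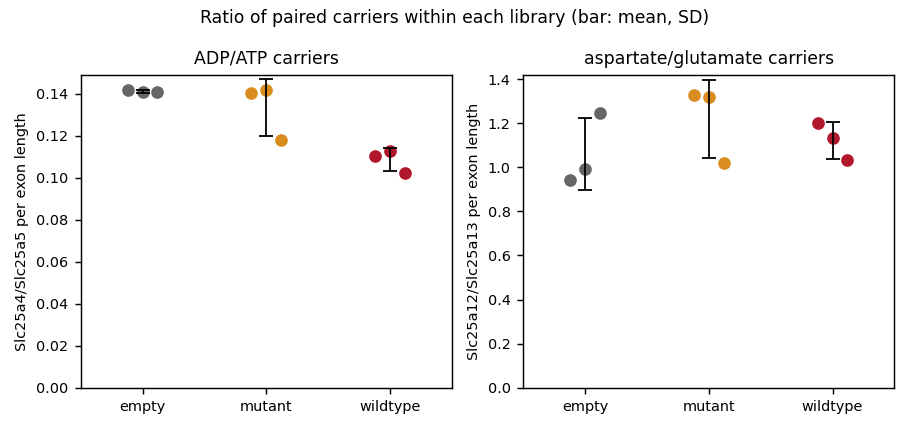
Ratio of Slc25a4 to Slc25a5 (left) and of Slc25a12 to Slc25a13 (right) per exon length in each library, on linear axes from 0, with bars spanning the mean plus and minus 1 SD of 3 libraries. The wildtype ratios of the ADP/ATP carriers lie near 0.108, below the 0.141 of the empty vector, while the ratios of the aspartate/glutamate carriers overlap.

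Slc25a1, Slc25a23 and Slc25a45 made up the rest of the falls. Slc25a23, a calcium-regulated carrier of ATP-magnesium and phosphate, was low in all libraries. It held 2.49, 2.655 and 3.22 CPM with the empty vector, 3.22, 2.71 and 2.27 CPM in the mutant libraries and 1.04, 1.06 and 1.23 CPM in the wildtype libraries. The wildtype libraries lay below all others, at a log2 fold change of −1.33 ± 0.27 (adjusted p 0.00344 in edgeR), the largest fall of the family on this scale. Slc25a45 held 3.52, 4.05 and 5.60 CPM with the empty vector, 4.41, 3.37 and 2.99 CPM in the mutant libraries and 1.999, 2.41 and 1.67 CPM in the wildtype libraries, a log2 fold change of −1.12 ± 0.27 (adjusted p 0.00904). Slc25a1, the citrate carrier, held 194, 204 and 248 CPM with the empty vector, 225, 225 and 183 CPM in the mutant libraries and 161, 174 and 148 CPM in the wildtype libraries. The wildtype libraries were again the lowest, but the log2 fold change of −0.42 ± 0.13 passed narrowly (adjusted p 0.0354). That call was lost when mutant replicate 1, mutant replicate 2, wildtype replicate 1, wildtype replicate 3, empty vector replicate 2 or empty vector replicate 3 was left out, and with RLE factors, with the fit to 6 libraries and with mutant replicates 1 and 2 summed (adjusted p up to 0.226 over all alternatives).

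Several abundant or well-known carriers were not called with wildtype GATA1. Slc25a3, the phosphate carrier, held 1487, 1378 and 1369 CPM with the empty vector, 1342, 1363 and 1320.5 CPM in the mutant libraries and 1356, 1224 and 1131 CPM in the wildtype libraries (wildtype −0.19, interval −0.42 to 0.04). Slc25a28, the mitochondrial iron importer mitoferrin 2, held 2.13, 2.59 and 2.83 CPM with the empty vector, 2.88, 3.68 and 3.51 CPM in the mutant libraries and 1.84, 2.98 and 1.67 CPM in the wildtype libraries. Its wildtype log2 fold change of −0.23 had an interval from −0.83 to 0.37. Its paralog Slc25a37 (mitoferrin 1) differed by 3.63 in the same comparison, from 24.6 to 303 CPM on average. The oxoglutarate carrier Slc25a11 (−0.18), the dicarboxylate carrier Slc25a10 (−0.08) and the acylcarnitine carrier Slc25a20 (−0.23), which brings fatty acids in for oxidation, were not called either. The uncalled members with the widest intervals were those of low level, such as the pyrimidine nucleotide carrier Slc25a33 (0.44, interval −0.57 to 1.45). Without wildtype replicate 3, calls were gained for Slc25a14, Slc25a22, Slc25a32, Slc25a36 and Slc25a47, giving 6 higher and 9 lower with the loss of Slc25a1. Without empty vector replicate 3, Slc25a42, Slc25a32 and Slc25a36 were gained, and without empty vector replicate 1, Slc25a53 was gained.

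With the mutant, no carrier was called against the empty vector. The count was 0 of 36 in edgeR and 0 in DESeq2. An unadjusted p under 0.05 was found for 5 of the 36 members and for 1284 of all 9979 genes, which are similar shares. In all tested genes, 0.23% were called higher and 0.0601% lower. Mutant and empty vector libraries did not overlap for 9 of the 36 members (25%), against 15% of all tested genes. The 5 members were Slc25a44 (log2 fold change 0.44), Slc25a39 (0.43), Slc25a22 (0.42), Slc25a4 (−0.26) and Slc25a32 (−0.44). Slc25a44, a carrier of branched-chain amino acids, held 82.3, 109 and 113 CPM with the empty vector, 139.8, 136 and 135 CPM in the mutant libraries and 103, 95.5 and 97.6 CPM in the wildtype libraries. The mutant libraries were the highest of the 9, and the call passed only without empty vector replicate 3 (log2 fold change 0.52, adjusted p 0.0369 in edgeR). For the 4 carriers that wildtype GATA1 raised, the mutant's log2 fold changes were 0.17 (Slc25a38), 0.43 (Slc25a39), −0.13 (Slc25a21) and 0.06 (Slc25a51), with upper interval bounds of 0.51, 0.77, 0.19 and 0.29. For the 7 that fell, they ran from −0.29 (Slc25a45) to −0.03 (Slc25a1 and Slc25a23). Both comparisons share the empty vector libraries.

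The mutant was compared with the wildtype directly. Mutant libraries held less of 5 carriers and more of 8, out of 36 tested. The 5 lower members were 13.9%, against 12.7% of all tested genes, and the 8 higher were 22.2%, against 13.2%. Mutant and wildtype libraries did not overlap for 20 members (55.6%), against 44.2% of all tested genes. The lower ones were Slc25a21 (log2 fold change −1.78 ± 0.15), Slc25a38 (−1.51 ± 0.16), Slc25a39 (−0.96 ± 0.16), Slc25a51 (−0.74 ± 0.10) and Slc25a53 (−0.66 ± 0.21), with adjusted p-values in edgeR up to 0.0353, that of Slc25a53. Slc25a53 held 4.69, 4.46 and 5.45 CPM in the mutant libraries, 6.88, 8.47 and 7.81 CPM in the wildtype libraries and 7.18, 4.54 and 4.89 CPM with the empty vector. Its empty vector libraries spanned the gap between the other groups, and its call was lost without mutant replicates 1 or 2 or any 1 wildtype library.

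The 8 carriers higher with the mutant were Slc25a23 (1.30 ± 0.27), Slc25a45 (0.83 ± 0.27), Slc25a22 (0.72 ± 0.16), Slc25a44 (0.47 ± 0.13), Slc25a30 (0.43 ± 0.15), Slc25a15 (0.43 ± 0.12), Slc25a1 (0.39 ± 0.13) and Slc25a12 (0.37 ± 0.10). Slc25a22, a glutamate carrier, held 47.8, 42.7 and 40.5 CPM in the mutant libraries, 23.4, 23.1 and 33.0 CPM in the wildtype libraries and 28.6, 33.3 and 36.1 CPM with the empty vector. The mutant libraries stood above all others, and the adjusted p was 0.00659 in edgeR. Slc25a30, of the uncoupling protein branch, held 25.1, 23.6 and 23.7 CPM in the mutant libraries, 18.4, 15.3 and 19.8 CPM in the wildtype libraries and 20.97, 24.0 and 20.2 CPM with the empty vector. Its mutant and empty vector ranges overlapped, and its adjusted p was 0.0445. Only Slc25a22 and Slc25a23 among the 8 were called under every alternative that tested them. The count of 8 became 2 without mutant replicate 1, mutant replicate 2 or wildtype replicate 1 and with mutant replicates 1 and 2 summed, and 5 when wildtype replicate 2 or empty vector replicate 2 was left out. A fit with the replicate number as a block changed these counts, though it is not known whether the numbers pair mutant and wildtype libraries. In the 6 libraries of the comparison it gave 12 higher and 8 lower, adding among others Slc25a4, Slc25a10 and Slc25a13 to the higher and Slc25a14, Slc25a17 and Slc25a40 to the lower carriers. In all 9 libraries the block gave 5 higher and 4 lower.

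Per length of exons, the family was dominated by a few carriers in every group. Length is the union of all annotated exons and not that of the expressed transcript, so the order of carriers depends on it. It was 1.646 kb for Slc25a5 and 5.55 kb for Slc25a3, whose undivided empty vector means were 1611 and 1411 CPM. With the empty vector, Slc25a5 led at 979 ± 80.1 CPM per kb, followed by Slc25a3 at 254 ± 11.9 and Slc25a4 at 138 ± 11.8 CPM per kb (SD, n = 3), and the ranges of these 3 did not overlap. Slc25a1, Slc25a39 and Slc25a11 followed at 99.5, 85.1 and 80.1 CPM per kb, each overlapping its neighbour in the order. With wildtype GATA1, Slc25a39 stood at 223 ± 41.5 CPM per kb, a range that overlapped that of Slc25a3 (223 ± 20.4). Slc25a38 moved from rank 9, at 23.4 ± 2.45 CPM per kb, to rank 5, at 75.0 ± 15.6 CPM per kb, where its range overlapped that of Slc25a1. At the low end, Slc25a23 was last of the tested carriers with wildtype GATA1, at 0.21 ± 0.02 CPM per kb. Summed over the 46 rows, the family held 4979 to 5375 CPM with the empty vector, 4829.7 to 4920.5 CPM in the mutant libraries and 4859 to 5365 CPM in the wildtype libraries, so the mutant libraries were below all empty vector libraries and the wildtype range overlapped that of the empty vector. That overlap depends on the scaling. By library totals alone the family held 4782 to 5119.9 CPM in the wildtype libraries, 5002.5 to 5030.4 CPM in the mutant libraries and 5141 to 5368 CPM with the empty vector, and the wildtype libraries were also below all empty vector libraries. Slc25a5 and Slc25a3 made up most of these sums, so the sums do not describe the family evenly. Their TMM-scaled means with the mutant were 1421 and 1342 CPM. Neither was called against the empty vector (adjusted p 0.467 and 0.781 in edgeR).

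**Figure D4:**
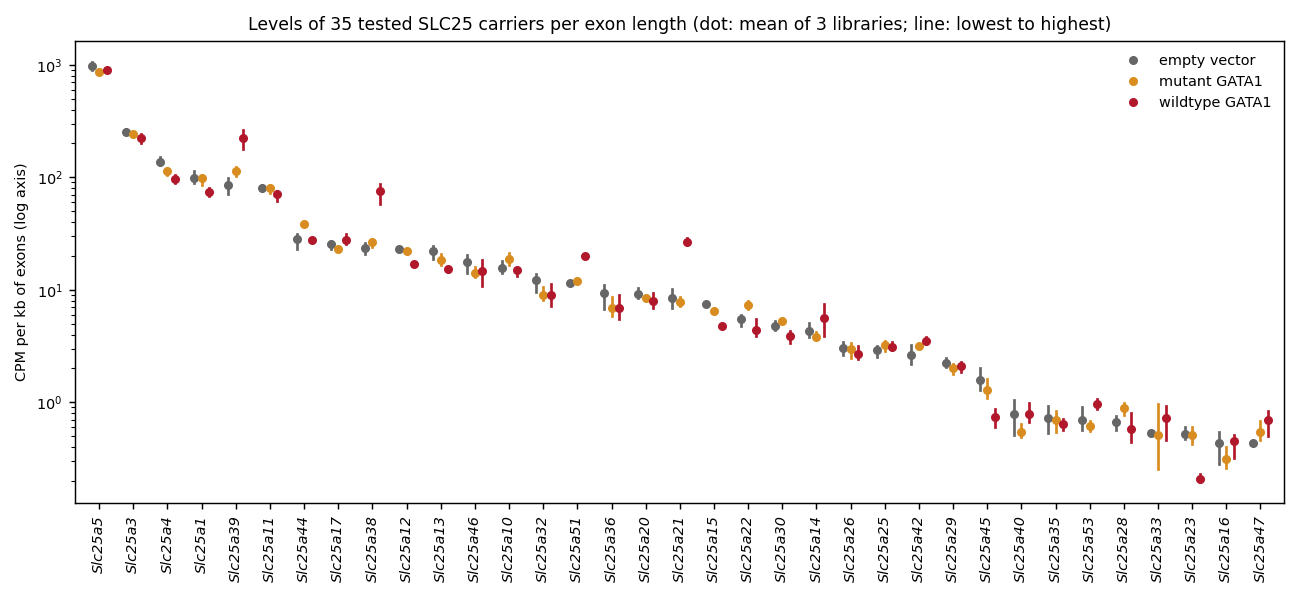
Level per kb of exons (vertical log axis, CPM per kb) of 35 of the 36 tested carriers, ordered by their mean with the empty vector, with a dot for the mean of 3 libraries and a line from the lowest to the highest library. Slc25a39, Slc25a38, Slc25a51 and Slc25a21 leave the order upwards with wildtype GATA1 (red).

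The 10 members that were not tested were close to silent. Slc25a27, Slc25a34, Slc25a48 and Slc25a54 had 0 counts in all 9 libraries. Slc25a24 had 1 count in all, Slc25a41 had 2, Slc25a43 had 3 and Slc25a31 had 4, while Slc25a18 had 10. Slc25a2, an ornithine carrier, had the highest total of these, with 1 to 8 counts per library. Slc25a31 is the ADP/ATP carrier of the testis and Slc25a27 an uncoupling protein of the brain, and neither exceeded 3 counts in a library.

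Genes that work beside the carriers were read from 8 lists with 93 rows in the table, of which 82 were tested. With wildtype GATA1, 10 of the 82 rose and 6 fell, where 11.4% of all tested genes were called higher and 11.9% lower, so the rises were near the general rate. The median log2 fold change was 0.03, beside −0.04 for all tested genes. Other inner membrane transporters held 4 rises and 1 fall among 17. They were led by Abcb10, an ATP-binding cassette transporter of erythroid mitochondria, which rose from 139.9 ± 5.32 to 606 ± 60.1 CPM (2.12 ± 0.11), and by Mpc1, a subunit of the pyruvate carrier, which rose from 26.6 ± 3.03 to 50.8 ± 13.5 CPM (0.93 ± 0.18). Enzymes that use the substrates of the citrate and acylcarnitine carriers held 2 rises and 2 falls among 11. Crat, the carnitine acetyltransferase, rose from 36.5 ± 6.84 to 163 ± 11.9 CPM (2.16 ± 0.15) and Cpt1c, of the carnitine palmitoyltransferase family, from 0.566 ± 0.203 to 3.13 ± 0.386 CPM (2.44 ± 0.31). Acly, which splits exported citrate into acetyl-CoA, fell from 851 ± 83.3 to 565 ± 65.7 CPM (−0.59 ± 0.12). Among 6 tested one-carbon and glycine enzymes, Mthfd2, a mitochondrial folate enzyme, rose from 135 ± 4.51 to 282 ± 30.5 CPM (1.06 ± 0.11) and 1 fell. The adjusted p-values of these 6 genes in edgeR ran up to 0.00389, that of Acly.

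Few genes of the remaining lists passed with wildtype GATA1. Of 3 tested family members under other symbols, Ucp2, an uncoupling protein, rose from 944 ± 160.3 to 1601 ± 200.1 CPM (0.76 ± 0.14, adjusted p 0.00205 in edgeR). The import route that inserts carriers into the inner membrane held 0 rises and 1 fall among 16 tested genes in edgeR. That fall was Agk (−0.46, adjusted p 0.023), a subunit of the TIM22 translocase, and its call was lost without mutant replicate 1, wildtype replicate 2 or empty vector replicate 2. The median log2 fold change of this list had the other sign, at 0.22, and the next members by p were Timm8b (0.62), Tomm5 (0.52) and Tomm7 (0.50), none of them called (adjusted p from 0.0567 to 0.0633 in edgeR). The 3 outer membrane channels (Vdac1, Vdac2 and Vdac3) held 0 calls, the 6 shuttle enzymes 1 fall, Gpd1l (−0.65), and the 20 genes of mitochondrial mass and housekeeping 2 rises, Chchd3 (0.46) and Hspe1 (0.57). Both of these rises were lost without empty vector replicate 2, and that of Hspe1 also without wildtype replicate 2. Over the lists together, the rises numbered 18 without wildtype replicate 3 and 6 without empty vector replicate 2. The falls numbered 3 when mutant replicate 1 or wildtype replicate 1 was left out, and 2 when wildtype replicate 2 or empty vector replicate 2 was.

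With the mutant, 1 of the 82 genes was called against the empty vector, which was Crat (0.80 ± 0.15, from 36.5 to 63.6 CPM, adjusted p 0.0388 in edgeR). Leaving out any 1 library other than wildtype replicate 3 or empty vector replicate 3 ended that call. Without empty vector replicate 3 there were 3 rises and 4 falls, and without wildtype replicate 3 there were 2 rises. Against the wildtype, 10 of the 82 were higher and 12 lower with the mutant, both near the 13.2% and 12.7% of all tested genes. The lower ones included Abcb10 (−1.62), Crat (−1.35), Cpt1c (−2.80), Mthfd2 (−0.98) and Mpc1 (−0.85), and the higher ones Acly (0.57). These counts fell to 3 higher and 7 lower without mutant replicate 1 and to 4 and 7 without mutant replicate 2, and 22 were lower without wildtype replicate 3. The higher count was 5 when mutant replicate 3 or wildtype replicate 1 was left out, 4 for wildtype replicate 2 and 6 for empty vector replicate 2. Blocking by replicate number in the 6 libraries made 17 higher and 31 lower.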

How the data were processed

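The deposited data are 1 table that holds raw counts for 27999 rows in 9 libraries, made with Smart-seq2 and transposase-based indexing, per the labels' protocols. STAR and the builds GRCm38.p4 and hg19 are named in the submitters' processing notes. The counter, the annotation, the handling of multi-mapping reads and the release of STAR were not given in the sources used here. Smart-seq2 keeps no strand.

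Counts were tested with edgeR 4.0.16 (glmQLFit, glmQLFTest) in R 4.3.3, with TMM factors, filterByExpr with the groups, 1 mean per group over all 9 libraries (6 residual degrees of freedom) and Benjamini-Hochberg adjustment over 9979 genes, human GATA1 included. A call is an adjusted p under 0.05. SEs are log2 fold changes without their sign divided by the root of F, and intervals at the 95% level are not adjusted. Exon lengths and positions are from GENCODE M21 (GRCm38). Floors of 3 counts cover counting error only. P-values measure the spread between libraries described as biological replicates.

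Values of each library are given for every member called in any comparison and for Slc25a3, Slc25a4, Slc25a5, Slc25a28 and Slc25a38. From the lists of other mitochondrial genes, only members among the 4 smallest p-values of a list and comparison are named. Members and lists were chosen with earlier results of these data known. Same-numbered mutant and wildtype libraries deviated together from their group means (r of 0.17, 0.29 and 0.53 over all tested genes), and the number was used as a block. Against the empty vector no same-numbered libraries deviated together (r from −0.43 to −0.20). These r cannot show pairing by number, because values for differently numbered libraries are not given here and the sample titles hold only the number. Alternatives were RLE factors, other low-count filters, DESeq2 1.42.0, fits to 6 libraries, replicate blocks, a sum of mutant replicates 1 and 2, and each library left out. Values of 1 tested carrier and 1 lineage marker are not reported here, though both enter the counts.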

Additional observations from a re-analysis of the deposited data

How the results depend on the processing

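Over 18 alternatives, 2 of them added after seeing the data (the replicate block in 6 libraries and the fit without human GATA1), no carrier called in a comparison changed direction there. Of 24 calls of carriers, 12 passed in every alternative that tested them: with wildtype GATA1 Slc25a38, Slc25a39, Slc25a21, Slc25a51, Slc25a23 and Slc25a45, and between mutant and wildtype Slc25a38, Slc25a39, Slc25a21, Slc25a51, Slc25a22 and Slc25a23. Slc25a23, Slc25a28 and Slc25a45 were not tested with the filter of 5 CPM in 3 libraries. Leaving out single libraries gave 4 to 6 carriers higher and 5 to 9 lower with the wildtype, 0 to 1 higher and 0 lower with the mutant, and 2 to 8 higher and 4 to 6 lower for mutant against wildtype. For the lists of other mitochondrial genes together the ranges were 6 to 18 and 2 to 8, 0 to 3 and 0 to 4, and 3 to 13 and 7 to 22. Against the empty vector, where same-numbered libraries did not deviate together, the replicate block in 6 libraries gave 2 carriers lower with the wildtype. It also gave 6 other genes higher and 0 lower with the wildtype, and 0 other genes higher with the mutant. For mutant against wildtype it gave 8 carriers lower, and 17 other genes higher and 31 lower. The replicate block in 9 libraries gave 3 other genes lower with the wildtype, 0 higher with the mutant, and 5 carriers and 5 other genes higher for mutant against wildtype. It also ended the calls of Slc25a1 in both comparisons and of Slc25a53, Slc25a30 and Slc25a45 between mutant and wildtype. With mutant replicates 1 and 2 summed, 2 carriers and 4 other genes were higher and 7 other genes lower for mutant against wildtype, and 0 other genes were higher with the mutant. The fit to 6 libraries gave 2 other genes lower with the wildtype and 0 higher with the mutant. DESeq2 gave 2 other genes higher with the mutant and 19 lower for mutant against wildtype, and no low-count filter gave 2 higher and 1 lower with the mutant. Among uncalled log2 fold changes of the mutant, leaving out single libraries moved that of Slc25a21 between −0.261 and 0.0116, that of Slc25a1 between −0.0976 and 0.0882 and that of Slc25a23 between −0.140 and 0.0906, so these have no settled sign. The cause of these changes was not tested. Depth limits the carriers below about 5 CPM most, where intervals are widest.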
